A study of Mus musculus with 48 samples.

Results

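The data described here are the bone marrow-derived macrophages that had been polarized with lipopolysaccharide and interferon-γ, the state called M1, and then exposed to the compound AP-3-84 or to its vehicle. They were chosen by their labels and hold 12 of the 48 libraries of the series. All 11779 genes that passed the filter on low counts, of 51789 genes in the table, enter each comparison. The series measured mouse macrophages of peritoneal and of bone marrow origin after AP-3-84, whose chemistry and target the labels do not give. The 12 libraries form 4 groups of 3: wild-type (WT) vehicle, WT AP-3-84, p53 knockout (KO) vehicle and KO AP-3-84. All 4 groups were C57BL/6 bone marrow cells that had grown with 10 ng/mL of the growth factor M-CSF over 6 days, followed by 24 h of 100 ng/mL lipopolysaccharide with 50 ng/mL interferon-γ. The treated groups then received 10 µM AP-3-84 over 4 h, and the vehicle groups received the same amount of DMSO. The labels do not say whether the polarizing agents were still present during those hours, which part of the p53 gene is deleted, how old the mice were, or whether replicates came from separate mice or cultures. The p-values therefore measure a spread between libraries, which may be technical. It was estimated over all 36 bone marrow-derived libraries of the series, which were fitted together. The compared questions are which genes the compound changed in WT M1 cells, whether KO M1 cells lacked that response, and at what level the responding genes stood in KO cells without the compound.

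The tumour suppressor p53 is a transcription factor that stress signals stabilize, and its targets include genes of cell cycle arrest, DNA repair, redox balance and cell death. Another stress program, the integrated stress response, starts when phosphorylation of the translation factor eIF2α slows protein synthesis while the transcription factors ATF4 and CHOP (gene Ddit3) are made. Both programs can induce Gdf15, a secreted cytokine of the TGF-β superfamily that marks stressed cells. M1 macrophages are the inflammatory state of these cells, with strong NF-kB and interferon-driven transcription.

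Libraries held from 3374571 to 4645148 counts. The mean correlation of each with the others of its group (Pearson, log2 scale) was 0.9752 to 0.9768 in WT vehicle and 0.9595 to 0.9654 in WT AP-3-84. It was 0.9525 to 0.9639 in KO vehicle and 0.9621 to 0.9711 in KO AP-3-84. Levels are given below as CPM, a gene's share of all counts in a library on the usual CPM scale, corrected for library composition, and fold changes on the log2 scale. The p53 gene itself, Trp53, gave 9.54, 7.42 and 7.30 CPM in the WT vehicle libraries and 7.97, 9.11 and 3.79 in the KO vehicle libraries. A 3′ tag can lie outside a deleted part, so this value checks nothing. Phlda3, a p53 target that restrains AKT signalling, had 115 counts over the 3 WT vehicle libraries and 0 over the 3 KO vehicle libraries, which is at least 41.7-fold lower at a floor of 3 counts over the group. Cdkn1a, which encodes the cell cycle inhibitor p21, read 687, 609 and 719 CPM in WT vehicle and 252, 196 and 247 in KO vehicle (log2 difference -1.54, SE 0.28, adjusted p = 0.000655). These 2 targets thus separate the genotypes as the titles give them, although a genotype field in the labels calls all libraries wild-type. Of the other targets set as label checks, Ccng1 was also lower in KO vehicle, while Mdm2 showed no called difference. The listed p53 targets went both ways, as described below. Of the M1 markers, Nos2, the inducible nitric oxide synthase, read only 3.87, 4.77 and 1.51 CPM in WT vehicle cells. Given without values of unpolarized cells, this level is no check of the polarization label. The macrophage markers Adgre1, Csf1r, Cd68, Itgam, Fcgr1, Mertk, Lyz2 and Cd14 were detected in every group. Their summed level was 44010 to 46960 CPM in WT vehicle, 46650 to 49120 in WT AP-3-84, 16320 to 25730 in KO vehicle and 12520 to 21120 in KO AP-3-84, most of it from the lysozyme gene Lyz2. The sum was lower in all 6 KO libraries, as were Lyz2 and Adgre1. Between the vehicle groups, Itgam (786.1 to 856.2 CPM in WT and 450.4 to 712.3 in KO) was also lower in every KO library. So was Mertk (34.97 to 55.13 in WT and 22.99 to 32.66 in KO). Csf1r read 1461 to 1956 CPM in WT vehicle and 1332 to 1663 in KO vehicle, and Cd68, Fcgr1 and Cd14 overlapped between these groups as well. In bulk RNA, fewer cells of a type and less RNA per cell cannot be told apart.

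In WT M1 cells, AP-3-84 raised 2 of the 11779 genes, Gdf15 and Gadd45b, and lowered none at an adjusted p under 0.05 (0.017% called, edgeR quasi-likelihood test). Gdf15 rose 5.49-fold and Gadd45b, a stress-induced regulator of MAP kinase signalling and DNA demethylation, rose 2.82-fold. Without adjustment, 857 genes (7.28%) had a p under 0.05, of which 515 were higher (4.37%) and 342 lower (2.9%). The Gdf15 gene lies at 70629393 to 70632456 on the minus strand of chromosome 8, and Gadd45b at 80930073 to 80932204 on the plus strand of chromosome 10 (GRCm38). Their promoters are printed because these are the genes that passed, and that of Trib3 because it had the largest WT fold change among the 18 genes that follow them in p, described below. Each is 250 bases before to 50 after a RefSeq transcription start in build GRCm38.p6, in the direction of the gene, at chr8:70632407-70632706 (minus strand, the first of 2 starts listed), chr10:80929841-80930140 (plus strand) and chr2:152344011-152344310 (minus strand). Capitals mark matches to any motif searched.
Gdf15: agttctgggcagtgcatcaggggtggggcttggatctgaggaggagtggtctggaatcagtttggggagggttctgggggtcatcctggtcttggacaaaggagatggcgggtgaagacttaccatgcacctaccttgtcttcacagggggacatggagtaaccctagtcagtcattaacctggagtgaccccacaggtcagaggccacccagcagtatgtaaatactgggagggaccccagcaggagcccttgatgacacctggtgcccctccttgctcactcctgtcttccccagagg
Gadd45b: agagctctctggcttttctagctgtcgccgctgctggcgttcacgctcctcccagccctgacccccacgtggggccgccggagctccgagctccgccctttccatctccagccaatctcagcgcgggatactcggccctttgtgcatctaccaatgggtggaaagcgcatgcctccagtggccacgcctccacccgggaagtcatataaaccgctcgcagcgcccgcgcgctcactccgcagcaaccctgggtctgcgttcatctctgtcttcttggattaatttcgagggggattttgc
Trib3: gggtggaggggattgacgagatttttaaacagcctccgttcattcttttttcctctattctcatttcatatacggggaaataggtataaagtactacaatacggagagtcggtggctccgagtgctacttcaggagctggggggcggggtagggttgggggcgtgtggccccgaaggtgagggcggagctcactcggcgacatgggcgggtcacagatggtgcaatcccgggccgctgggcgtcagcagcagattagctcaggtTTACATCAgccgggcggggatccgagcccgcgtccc

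The motifs were searched on both strands. They were the C/EBP-ATF response element TGATGNAA, bound by ATF4 with C/EBP partners, the AP-1 site TGANTCA, the cAMP response element TGACGTCA, an NF-kB consensus, the antioxidant response element core TGACNNNGC and the p53 half-site by its consensus. Of 32851 promoters in the table, 3.97% held the first, 7.81% the second, 1.79% the third, 1.63% the NF-kB site, 12.4% the antioxidant core and 8.36% a p53 half-site. The Trib3 promoter held 1 match, to the C/EBP-ATF response element on the opposite strand, 14 bases after the start. The Gdf15 and Gadd45b windows held 0 matches, which says only that these letters are not in these windows.

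Gdf15 stood at 14.6, 11.1 and 13.3 CPM in the WT vehicle libraries and at 63.4, 54.7 and 96.9 CPM in the WT AP-3-84 libraries. Every treated library was above every vehicle library, and the third treated library was the highest. The log2 fold change was 2.46 (SE 0.32, 95% interval 1.81 to 3.11, adjusted p = 0.000132). Gadd45b stood at 9.24, 13.0 and 11.3 CPM with vehicle and at 38.4, 38.1 and 18.2 CPM with AP-3-84. The groups did not overlap, and the third treated library was the lowest of its group. Its log2 fold change was 1.5 (SE 0.24, 95% interval 1.01 to 1.98, adjusted p = 0.00258). The Gadd45b call was lost without the first WT vehicle library (adjusted p = 0.117) or without the first WT AP-3-84 library (adjusted p = 0.0807), while Gdf15 was called in all 6 such omissions. The number of genes called was 1 without either of those libraries, 5 without the second WT AP-3-84 library and 17 without the third WT vehicle library. It was 12, all higher, when only the 12 M1 libraries were fitted, 28 with DESeq2 and 230 with no filter on low counts.

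**Figure D1:**
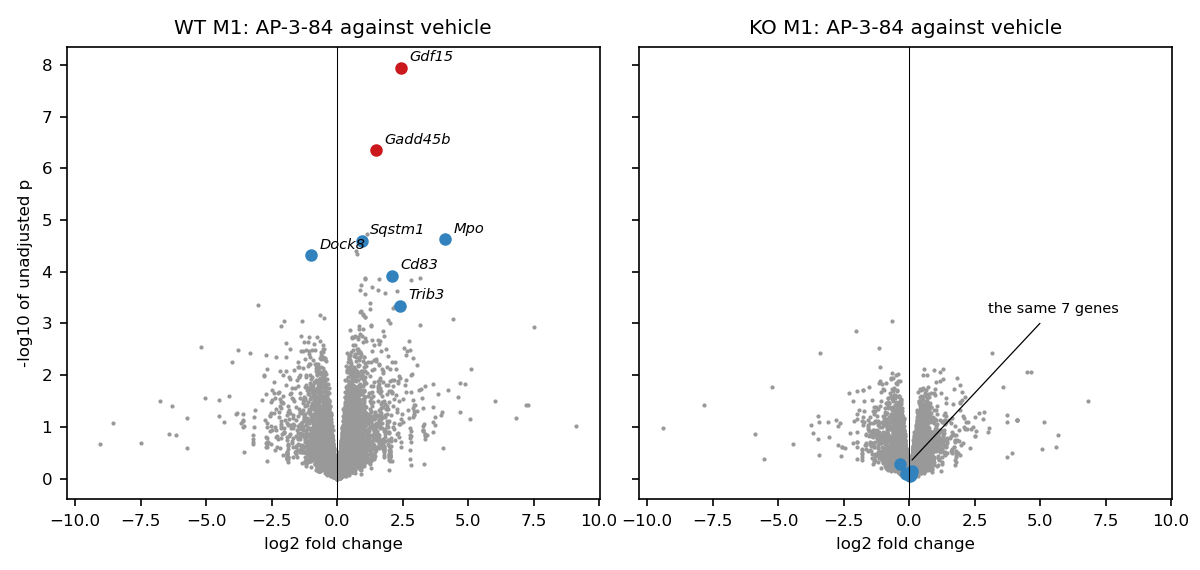
Each point is 1 of 11779 genes, with the log2 fold change of AP-3-84 against vehicle on the horizontal axis and the -log10 of the unadjusted p on the vertical axis, for WT M1 (left) and KO M1 (right). Red marks genes with an adjusted p under 0.05 (Gdf15 and Gadd45b in WT, none in KO), and blue marks 5 other genes described in the text.

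Beside these 2 genes, 18 more had the lowest p in WT M1. They were taken among genes whose groups did not overlap and whose mean level reached 3 on the log2 CPM scale. That mean was over all 36 bone marrow-derived libraries, KO libraries included. None of the 18 passed the threshold, with adjusted p from 0.0587 to 0.232, and their values are given as measurements. Among genes of the integrated stress response, Trib3, a pseudokinase induced by ATF4 and CHOP, read 3.58, 3.71 and 2.27 CPM with vehicle and 19.9, 12.9 and 17.9 with AP-3-84 (log2 2.39, SE 0.60, adjusted p = 0.214). Ppp1r15a, which encodes GADD34, the subunit that directs a phosphatase to eIF2α, read 7.15, 9.27 and 8.31 CPM with vehicle and 20.2, 25.0 and 16.5 with AP-3-84 (log2 1.32, SE 0.31, adjusted p = 0.143). For both genes every treated library was above every vehicle library, which was a condition of the choice and adds no support. When only the 12 M1 libraries were fitted, Trib3 passed (adjusted p = 0.00236).

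Sqstm1, which encodes the autophagy receptor p62 and is an NRF2 target, read 438, 453 and 380 CPM with vehicle and 701, 686 and 1043 with AP-3-84 (log2 0.94, SE 0.19, adjusted p = 0.0587). Mt1, a metal-binding metallothionein, read 218, 231 and 272 CPM with vehicle and 396, 498 and 633 with AP-3-84 (log2 1.08, SE 0.25, adjusted p = 0.12). Hspa1a, the inducible HSP70 chaperone, read 1.19, 3.97 and 2.01 CPM with vehicle and 14.1, 6.30 and 12.6 with AP-3-84 (log2 2.15, SE 0.55, adjusted p = 0.232). Hspa1a and its neighbour Hspa1b are near-identical, so the split of reads between them is uncertain. The choice required the treated libraries to lie on 1 side of the vehicle libraries, and for all 3 genes they lay above. The third AP-3-84 library was the highest for Sqstm1 and Mt1.

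Cd83, a surface protein of activated antigen-presenting cells, read 3.28, 3.97 and 5.04 CPM with vehicle and 21.8, 16.6 and 15.5 with AP-3-84 (log2 2.11, SE 0.47, adjusted p = 0.12). Plk2, a polo-like kinase that p53 can induce, read 3.87, 3.71 and 3.02 CPM with vehicle and 6.73, 9.83 and 14.9 with AP-3-84 (log2 1.56, SE 0.38, adjusted p = 0.147). Timp2, an inhibitor of matrix metalloproteinases, read 61.4, 47.2 and 79.6 CPM with vehicle and 137, 122 and 136 with AP-3-84 (log2 1.07, SE 0.25, adjusted p = 0.12). Again no treated library reached down to the vehicle libraries, since genes with overlapping groups were left out. Cd83 and Timp2 passed when only the 12 M1 libraries were fitted (adjusted p = 0.00803 and 0.0161).

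Dock8, an activator of the GTPase CDC42 in leukocytes, was the only one of the 20 genes with lower values after AP-3-84, at 60.8, 55.1 and 47.1 CPM with vehicle and 28.2, 28.7 and 24.5 with the compound (log2 -1.0, SE 0.21, adjusted p = 0.0704). Its groups did not overlap, as the choice required. The other genes of this set had log2 values between 0.73 and 1.83. They were Zdhhc18, a palmitoyltransferase (1.14), Chpf2, of chondroitin synthesis (0.73), Renbp, an N-acetylglucosamine epimerase (0.76), Ecm1, an extracellular matrix protein (0.90), Dpp7, a lysosomal peptidase (0.88), Tmem26 (1.83), Chchd10, a mitochondrial protein (1.25), Cep170b (1.26) and the pseudogene Gpx4-ps2 (1.05), whose reads may be shared with Gpx4.

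Markers of another cell type moved with the WT treatment. The summed level of 7 neutrophil markers was 440 to 566 CPM in WT vehicle, 668 to 1324 in WT AP-3-84, 985 to 2502 in KO vehicle and 727 to 3653 in KO AP-3-84. Most of it came from S100a8 (319.5 to 434 CPM in WT vehicle and 498.9 to 1082 in WT AP-3-84), which macrophages can also express. One of the 7 was singled out after its values were seen: Mpo, the myeloperoxidase of granulocyte precursors, read 0.298, 0.530 and 0.503 CPM in WT vehicle and 8.33, 3.53 and 13.9 in WT AP-3-84 (log2 4.14, SE 0.83, adjusted p = 0.0587). S100a9 (105.7 to 121.9 CPM in WT vehicle and 130.3 to 202 in WT AP-3-84), the granule gene Ngp (6.62 to 9.32 and 14.4 to 20.5) and Elane (at most 0.252 and 0.320 to 0.504) were also higher in every treated library, while Camp overlapped. Over all genes tested, 9.6% stood fully above vehicle in WT. The levels of Elane, and of Mpo with vehicle, rest on few reads at this depth. Ly6g, a defining neutrophil surface marker, was at 0 in all 3 WT AP-3-84 libraries and in 2 of the 3 WT vehicle libraries. The part of these markers in the WT response was not tested. Fibroblast markers summed to 16.6 to 41.9 CPM in WT vehicle and 18.9 to 37.4 in WT AP-3-84, against 89.9 to 123 in KO vehicle. B cell, T and NK cell, dendritic, mast cell and erythroid markers summed to at most 8.25 CPM in any library. In all 3 WT AP-3-84 libraries, 4 of 5 B cell and 4 of 6 T and NK cell markers were at 0. So were 3 of 5 dendritic, 3 of 5 mast cell and 4 of 5 erythroid markers. The others were detected, with Cd79b of the B cell list at 2.88 to 6.81 CPM.

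In KO M1 cells, AP-3-84 changed 0 of 11779 genes at an adjusted p under 0.05 (0% called, edgeR). DESeq2 also called 0, and 206 genes (1.75%) had an unadjusted p under 0.05. Gdf15 stood at 121, 77.2 and 112 CPM in the KO vehicle libraries and at 133, 97.2 and 102 in the KO AP-3-84 libraries. The groups overlapped. The log2 fold change was 0.10 (SE 0.28, 95% interval -0.47 to 0.67, adjusted p = 1). Gadd45b stood at 119, 113 and 93.7 CPM with vehicle and at 91.4, 131 and 115 with AP-3-84. These groups overlapped as well, with a log2 fold change of 0.05 (SE 0.20, 95% interval -0.36 to 0.47, adjusted p = 1). The upper bounds of both KO intervals lie below the lower bounds of the WT intervals. Both genes were chosen by their WT values, which favours such a gap, so it is no test of a difference. With no filter on low counts the number of KO calls was 29. KO vehicle libraries were less alike than WT vehicle libraries, as given above, which makes full separation of groups harder to reach. Absent calls in KO cells therefore do not show that a response was absent.

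**Figure D2:**
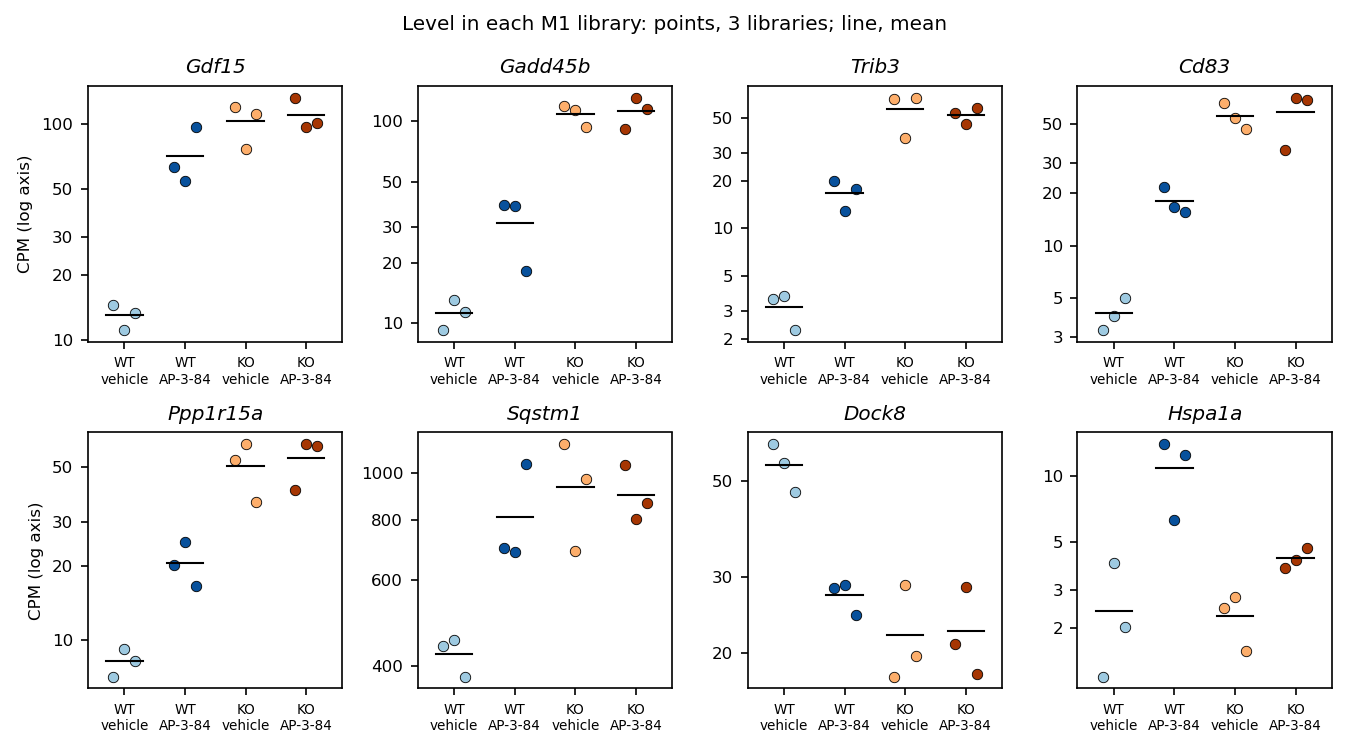
Each point is 1 library and each line the mean of 3, as CPM on a log axis, in the 4 M1 groups for 8 genes. For Gadd45b, Trib3, Cd83 and Ppp1r15a every KO library lies above every treated WT library, for Gdf15 the KO libraries start at 77.2 CPM, and for Hspa1a the KO vehicle libraries (1.56 to 2.78 CPM) lie in the range of WT vehicle.

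The difference between the responses, KO minus WT, was tested directly. It passed for Gdf15 alone among 11779 genes (0.00849% called), at a log2 difference of -2.36 (SE 0.42, 95% interval -3.22 to -1.50, adjusted p = 0.0483). The direction held in all alternatives, but the call was lost in 13 of 21 of them, 10 of which leave out a single library. It was kept without the second WT AP-3-84 library (adjusted p = 0.0325) and without the second KO vehicle library (adjusted p = 0.0254), and it was lost without each of the other 10 (adjusted p from 0.0593 to 0.407). For Gadd45b the difference was -1.44 (SE 0.31, 95% interval -2.08 to -0.80) and did not pass (adjusted p = 0.36). No other gene passed, so the data do not show a difference between the genotypes for them.

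The remaining genes of the WT set were next read in KO cells, whose libraries are separate from those that chose them. Over all 20 genes the KO log2 fold changes ran from -0.32 to 0.89 with a median of -0.08, and 0 passed. In KO cells 1 of the 20 had all treated libraries above all vehicle libraries (2.79% of all genes) and 1 had them all below (3.87%). The gene at the upper end was Hspa1a, at 2.47, 2.78 and 1.56 CPM in KO vehicle and 3.79, 4.13 and 4.66 in KO AP-3-84 (log2 0.89, SE 0.60, 95% interval -0.32 to 2.11). Its interval overlaps that of WT cells (1.02 to 3.27), and the difference of -1.25 between the genotypes did not pass (adjusted p = 0.779). For Trib3 the KO value was -0.11 (95% interval -1.03 to 0.81) and the difference from WT -2.51 (SE 0.75, adjusted p = 0.584), which passed when only the 12 M1 libraries were fitted (adjusted p = 0.0214). For Cd83 the KO value was 0.07 (95% interval -0.67 to 0.81) and the difference -2.04 (SE 0.60, adjusted p = 0.555).

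**Figure D3:**
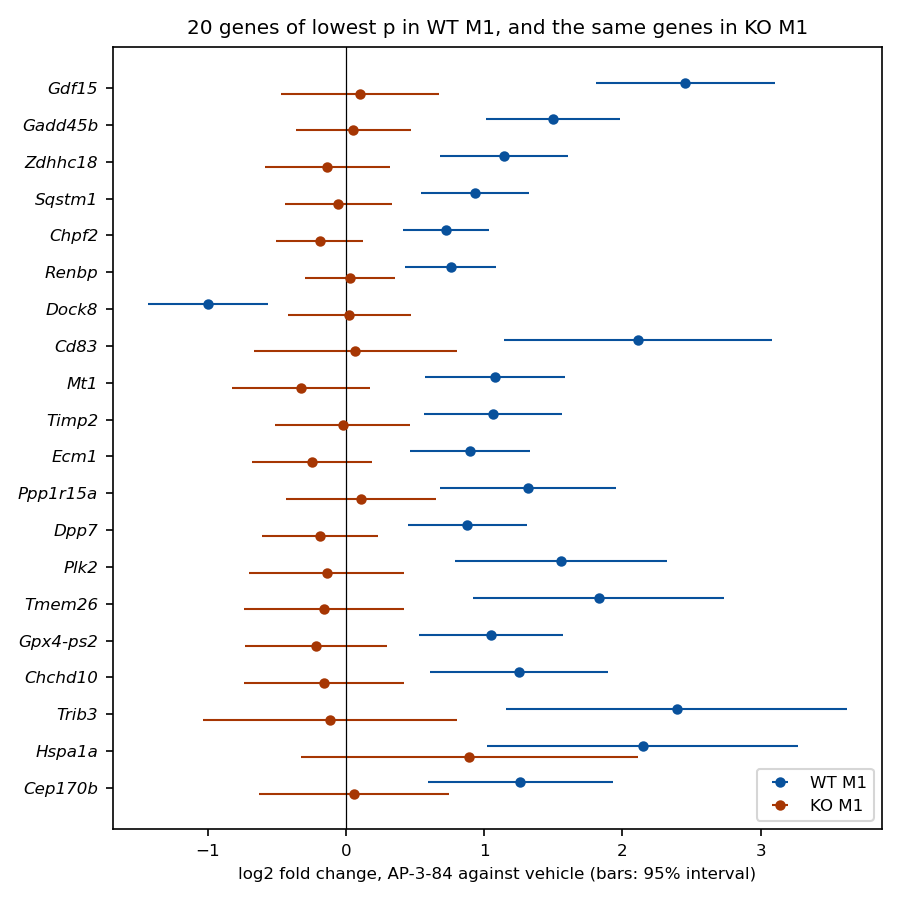
Points are log2 fold changes of AP-3-84 against vehicle and bars their 95% intervals, for the 20 genes of lowest p in WT M1 (blue) and the same genes in KO M1 (brown). KO values lie between -0.32 and 0.89, whereas the genes were chosen for their WT values, which lie between -1.0 and 2.46.

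The 10 genes of lowest p in KO cells were also looked up. They were Jarid2, Rcn1, Mesd, Lrp10, Smim10l1, Rbm34, Gm22710, Alg3, Bsg and Spag7, all with an adjusted p of 1. Their log2 values ran from -0.69 to 0.95. The lowest p belonged to Jarid2, a cofactor of the Polycomb repressive complex, with 69.8, 45.3 and 56.9 CPM in KO vehicle and 38.4, 36.6 and 34.3 in KO AP-3-84 (log2 -0.65, SE 0.18). None of these 10 was among the 20 genes of the WT set.

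Without the compound, both genes that rose in WT cells, Gdf15 and Gadd45b, stood higher in KO than in WT M1 cells. Of the 20 genes of the WT set, these 2 included, 12 were called higher and 1 lower in KO. The shares over all genes were 5.93% and 5.71%. In KO vehicle against WT vehicle libraries, 1372 of 11779 genes differed (11.6% called), 699 higher and 673 lower in KO. This comparison shares its WT vehicle libraries with the WT response, so the values are only set side by side: a WT vehicle value that is low by chance raises both. Gdf15 averaged 13.0 ± 1.76 CPM in WT vehicle, 71.7 ± 22.3 in WT AP-3-84 and 103 ± 23.0 in KO vehicle (mean ± SD, n = 3). The lowest KO vehicle library (77.2) was above 2 of the 3 treated WT libraries. The KO level exceeded the WT vehicle level by 2.99 on the log2 scale (SE 0.32, adjusted p = 5.03e-07). Gadd45b averaged 11.2 ± 1.88 CPM in WT vehicle, 31.6 ± 11.6 in WT AP-3-84 and 109 ± 13.1 in KO vehicle. All KO vehicle libraries were above all treated WT libraries, and the log2 difference from WT vehicle was 3.27 (SE 0.24, adjusted p = 4.38e-11). Both differences kept their calls in all 14 alternatives.

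Trib3 read 66.2, 37.2 and 67.4 CPM in KO vehicle, above all 3 treated WT libraries (log2 against WT vehicle 4.16, SE 0.58, adjusted p = 5.38e-05). Cd83 read 66.2, 54.4 and 46.9 CPM in KO vehicle, again above the treated WT libraries (log2 3.75, SE 0.46, adjusted p = 6.8e-06). Ppp1r15a read 53.3, 61.5 and 35.9 CPM (log2 2.60, SE 0.31, adjusted p = 1.5e-06). Plk2 showed the same order, at 58.0, 29.6 and 45.1 CPM in KO vehicle (log2 3.64, SE 0.35, adjusted p = 3.52e-08). The level condition of the choice counted KO libraries too. A gene as low in WT M1 cells as Plk2 could meet it only through libraries where it was high. Its higher KO level is thus in part a condition of the choice. Dock8 read 17.6, 28.6 and 19.6 CPM in KO vehicle, below every WT vehicle library and overlapping the treated WT libraries (log2 -1.31, SE 0.21, adjusted p = 0.000165). Sqstm1 read 1147, 692 and 970 CPM, which overlaps the treated WT libraries (log2 1.14, SE 0.19, adjusted p = 0.000203). Zdhhc18, Timp2, Dpp7, Tmem26 and Chchd10 were also called higher in KO vehicle, Chchd10 at a log2 difference of 1.90 (SE 0.31, adjusted p = 0.000175).

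For other genes of the WT set the difference between the genotypes without the compound did not pass. Hspa1a had a log2 difference of -0.11 (95% interval -1.45 to 1.24, adjusted p = 0.944), Chpf2 of -0.05 (-0.36 to 0.27), Renbp of 0.23 (-0.10 to 0.56), Ecm1 of 0.21 (-0.23 to 0.64), Cep170b of -0.14 (-0.83 to 0.55), Mt1 of 0.69 (0.19 to 1.19) and Gpx4-ps2 of 0.56 (0.04 to 1.08). The KO responses of these genes, apart from Hspa1a, had log2 values from -0.32 (Mt1) to 0.06 (Cep170b). Chpf2 read 34.1, 35.2 and 37.7 CPM in KO vehicle and 29.8, 33.5 and 30.5 in KO AP-3-84, against 56.4, 57.7 and 69.1 in WT AP-3-84. Its KO response had a log2 value of -0.19 (95% interval -0.51 to 0.13) and its WT response 0.73 (0.41 to 1.04). The difference of -0.92 (SE 0.22) did not pass (adjusted p = 0.436).

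The baseline counts depend on scaling. With total counts in place of composition-corrected scaling, 1863 genes were higher and 230 lower in KO, and the median of all genes moved from 0.00 to 0.27 on the log2 scale. The differences of Gdf15 and Gadd45b are far above that shift. Leaving out single libraries gave 580 to 1778 baseline calls, with 580 to 786 without KO vehicle 1 or 3 or any one WT vehicle library. Macrophage, neutrophil and fibroblast marker sums differed between the genotypes, as given above, and their part in the baseline differences was not tested.

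Gene lists were written from general knowledge with earlier results of these data known. They are described by counts and medians. Of 39 listed p53 targets, 36 were tested. In WT cells 1 was called (Gdf15), the median log2 fold change was 0.48 against 0.01 over all genes, and 17 of the 36 had all treated libraries above all vehicle libraries, against 9.6% of all genes. Mdm2, the ubiquitin ligase that degrades p53, read 186, 179 and 177 CPM with vehicle and 252, 293 and 389 with AP-3-84 (log2 0.79, SE 0.27, adjusted p = 0.46). Cdkn1a read 946, 956 and 961 CPM with AP-3-84, above its 3 vehicle libraries (log2 0.51, SE 0.27, adjusted p = 0.697). Ccng1, cyclin G1, had a log2 value of 0.68 (SE 0.22, adjusted p = 0.419). In KO cells 0 were called, the median was 0.10 against -0.02 over all genes, and 1 of 36 stood fully above its vehicle libraries, against 2.79% of all genes.

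The p53 targets did not share one baseline direction in KO vehicle cells. Of the 36, 8 were lower and 5 higher than in WT, against 5.71% and 5.93% of all genes, with a median of -0.28 against 0.00 over all genes. Cdkn1a, Ccng1 (log2 -1.67, SE 0.23, adjusted p = 2.16e-05) and Phlda3 were among the lower genes. Gdf15, Plk2 and Gadd45a (log2 2.00, SE 0.55, adjusted p = 0.0175) were among the higher ones. Mdm2 read 213, 173 and 213 CPM in KO vehicle, and its difference from WT did not pass (log2 0.14, SE 0.27, adjusted p = 0.779).

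Of 33 genes listed for the integrated stress response, 29 were tested. In WT cells 1 was called (Gdf15, which also stands among the p53 targets), the median was 0.26, and 12 of 29 stood fully above and 0 fully below their vehicle libraries, against 9.6% and 8.73% of all genes. Ddit3, which encodes CHOP, read 31.9, 39.7 and 48.1 CPM with vehicle and 95.4, 81.4 and 114 with AP-3-84 (log2 1.28, SE 0.35, adjusted p = 0.299). In KO cells 0 were called, the median was 0.07, and 0 of 29 stood fully apart in either direction, against 2.79% of all genes above and 3.87% below. At baseline 17 of the 29 were higher in KO and 0 lower, with a median of 0.95, against 5.93% and 5.71% of all genes. Ddit3 read 439, 176 and 336 CPM in KO vehicle (log2 2.99, SE 0.36, adjusted p = 8.15e-06). Atf3, a transcription factor of this program, had a baseline difference of 1.51 (SE 0.20, adjusted p = 1.47e-05), and Chac1, which degrades glutathione, of 2.68 (SE 0.61, adjusted p = 0.00478). Of 20 aminoacyl-tRNA synthetase genes, many of which ATF4 induces, 7 were higher and 1 lower in KO at baseline, against the same 5.93% and 5.71%, and 0 were called after AP-3-84 in either genotype.

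**Figure D4:**
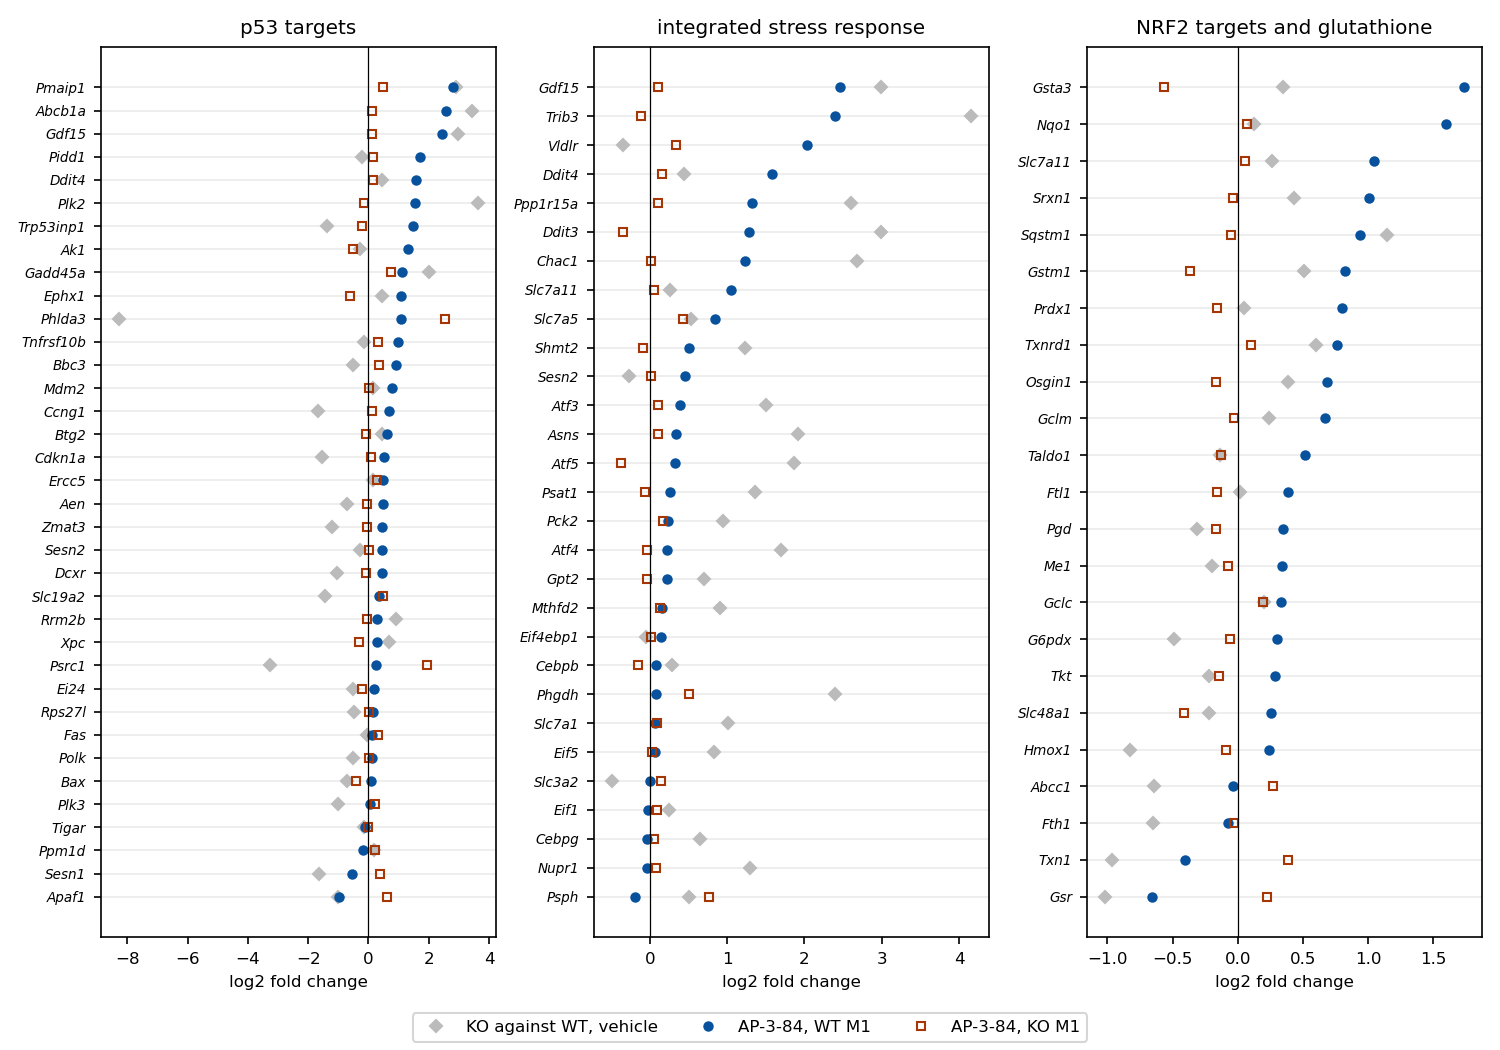
Log2 fold changes of single genes in 3 lists: AP-3-84 against vehicle in WT M1 (blue circles) and KO M1 (open squares), and KO against WT with vehicle (grey diamonds). Most WT values lie right of 0, KO values gather near 0, and the grey diamonds lie mostly right of 0 for the integrated stress response and on both sides for p53 targets. The Phlda3 diamond is a fitted value against a group with 0 counts and is no bound.

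NRF2 is the transcription factor of the antioxidant response. All 23 listed targets and glutathione genes were tested, and 0 were called in either genotype. In WT cells the median was 0.38, and 15 of the 23 stood fully above and 1 fully below their vehicle libraries, against 9.6% and 8.73% of all genes. In KO cells the median was -0.06, with 0 fully above and 1 fully below, against 2.79% and 3.87%. Srxn1, a sulfiredoxin, read 149, 150 and 138 CPM in WT vehicle and 224, 211 and 443 in WT AP-3-84 (log2 1.01, SE 0.30, adjusted p = 0.378), and 251, 125 and 211 in KO vehicle and 256, 157 and 160 in KO AP-3-84. The third WT treated library was the highest, and the KO groups overlapped. Gclm, a subunit of the enzyme that limits glutathione synthesis, had log2 values of 0.67 (SE 0.28) in WT and -0.03 (SE 0.28) in KO. At baseline 1 of the 23 was higher and 2 were lower in KO, against 5.93% and 5.71% of all genes, with a median of 0.02. There 3 of the 23 stood fully above and 7 fully below the WT vehicle libraries (13% and 30.4%), against 17.3% and 16.7% of all genes.

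All 3 Gadd45 genes had every WT treated library above every vehicle library, against 9.6% of all genes, and 1 of the 3 is the called gene Gadd45b. Beside Gadd45b, Gadd45a read 3.28, 4.50 and 2.27 CPM with vehicle and 6.40, 8.32 and 6.94 with AP-3-84 (log2 1.11, adjusted p = 0.69), and Gadd45g read 4.77, 10.9 and 7.30 with vehicle and 10.9, 12.6 and 24.5 with AP-3-84 (log2 1.05, adjusted p = 0.466). All 3 were called higher in KO vehicle than in WT vehicle, against 5.93% of all genes. Immediate early genes, 20 tested of 22 listed, had a WT median of 0.33 with 0 called and 9 fully above vehicle (9.6% of all genes), and a KO median of -0.07 with 0 fully apart. Egr1, a serum-response transcription factor, and Ier3 had WT log2 values of 2.02 and 0.55. At baseline 10 of these 20 were higher and 2 lower in KO, against 5.93% and 5.71% of all genes. Of 7 dual-specificity phosphatases, which switch off MAP kinases, 4 stood fully above vehicle in WT (9.6% of all genes), 0 were called, and 4 were higher and 1 lower in KO at baseline (5.93% and 5.71% of all genes). Of 24 lysosome and autophagy genes, 11 stood fully above vehicle in WT (median 0.25) and 1 in KO (median -0.04), against 9.6% and 2.79% of all genes, with 0 called.

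Interferon-stimulated genes lay on the other side of 0. None of 28 was called in WT cells, the median was -0.27, and 11 stood fully below and 0 fully above their vehicle libraries, against 8.73% and 9.6% of all genes. Gbp3, an interferon-induced GTPase, read 19.1, 17.5 and 14.6 CPM with vehicle and 8.33, 8.07 and 7.94 with AP-3-84 (log2 -1.07, SE 0.34, adjusted p = 0.404). In KO cells the median was -0.06, with 0 called and 1 fully below (3.87% of all genes). At baseline 1 of the 28 was higher in KO (5.93% of all genes). Antigen presentation genes had a WT median of -0.20, with 5 of 16 fully below vehicle (8.73% of all genes), and a KO median of -0.06.

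Inflammatory genes showed no called change. Tnf, the tumour necrosis factor gene, read 342, 440 and 272 CPM in WT vehicle and 449, 414 and 276 in WT AP-3-84 (log2 0.11, 95% interval -0.66 to 0.88), and its KO value was 0.12 (-0.65 to 0.89). Il1b, which encodes interleukin-1β, had log2 values of -0.39 (95% interval -1.70 to 0.91) in WT and -0.29 (-1.59 to 1.01) in KO. Il12b, a subunit of interleukin-12, read 5.96, 4.77 and 4.78 CPM in WT vehicle and 9.61, 8.82 and 9.26 in WT AP-3-84 (log2 0.83, SE 0.56, adjusted p = 0.784). It read 61.0, 34.2 and 64.3 CPM in KO vehicle, a baseline difference of 3.36 (SE 0.53, adjusted p = 0.000152). Of 12 cytokine genes tested, 0 were called with AP-3-84, and 3 were higher in KO at baseline (5.93% of all genes). Of 20 M1 markers, 0 were called with AP-3-84 in either genotype (medians -0.18 and 0.02), and of 17 M2 markers, of the state induced by interleukin-4, 0 were called (medians 0.51 and -0.08).

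**Figure D5:**
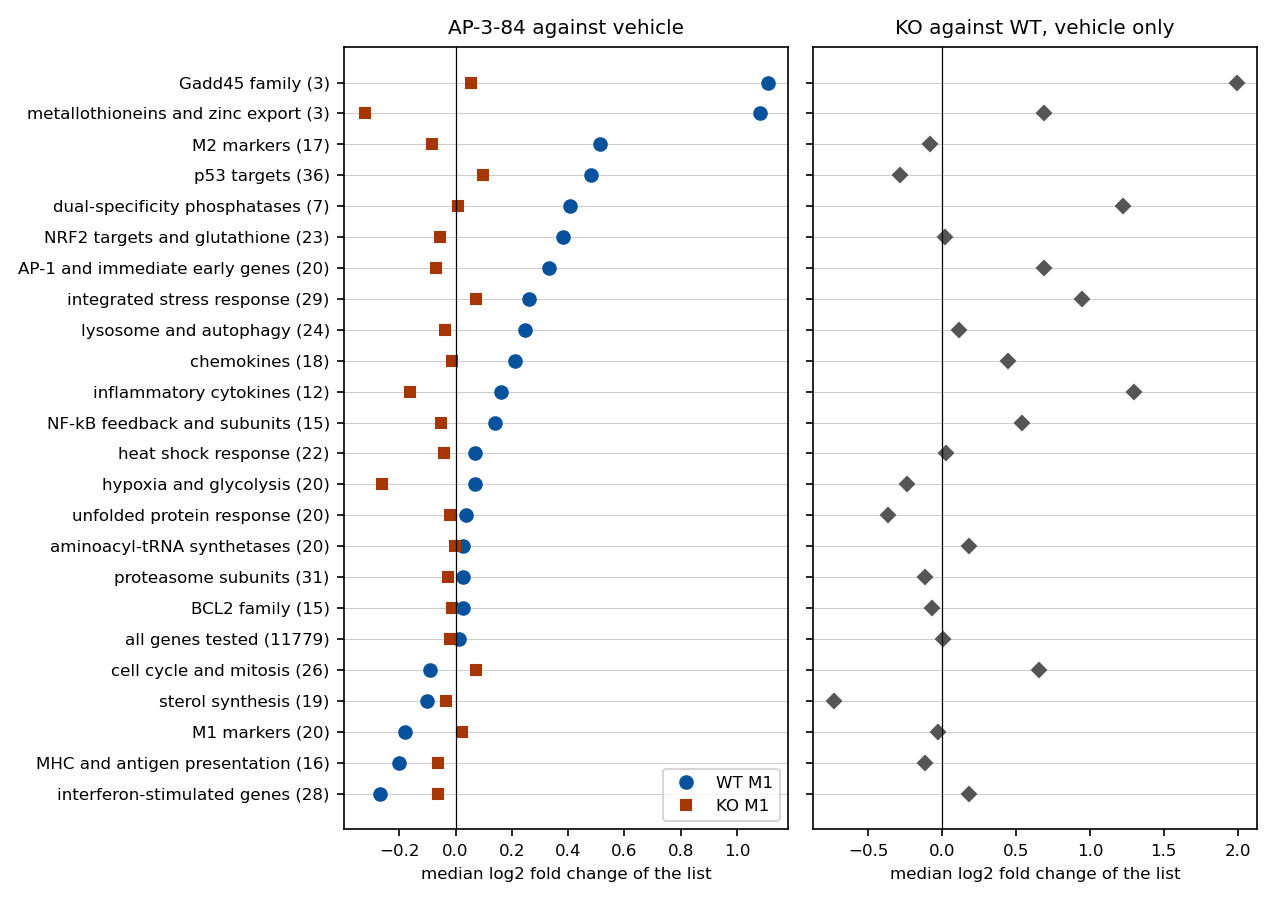
Median log2 fold change of each gene list, with the number of genes tested in brackets, for AP-3-84 against vehicle in WT M1 (circles) and KO M1 (squares) and for KO against WT with vehicle (diamonds). The WT medians run from -0.27 (interferon-stimulated genes) to 1.11 (Gadd45 family), while the KO medians stay between -0.32 and 0.10.

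Other lists had 0 calls in WT cells. Their median log2 fold changes, against 0.01 over all genes, were 0.07 for 22 heat shock genes, 0.04 for 20 genes of the unfolded protein response, 0.03 for 31 proteasome subunits, 0.03 for 15 genes of the BCL2 family, 0.14 for 15 NF-kB genes, 0.21 for 18 chemokines, 0.07 for 20 genes of hypoxia and glycolysis, -0.09 for 26 cell cycle genes and -0.10 for 19 sterol synthesis genes. The 3 genes for metallothioneins and zinc export had a WT median of 1.08 and a KO median of -0.32. At baseline, 7 of the 20 unfolded protein response genes and 5 of the 19 sterol genes were lower in KO and 0 higher, against 5.71% and 5.93% of all genes.

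The WT response was also set against that of unpolarized (M0) WT cells, which had grown with M-CSF without the polarizing agents and received the same dose of compound or vehicle. The difference in response, M1 minus M0, passed for 3 genes (0.0255% called), all higher in M1: Gdf15, Tmem26 and the pseudogene-named Olfr1369-ps1. Gdf15 in WT M0 cells read 74.0, 42.3 and 39.4 CPM with vehicle and 34.2, 41.7 and 45.2 with AP-3-84, so the untreated M0 level overlapped that of treated M1 cells. The difference was 2.82 (SE 0.43, adjusted p = 0.00306). Tmem26, a membrane protein, read 10.3, 11.7 and 8.18 CPM in WT M0 vehicle and 4.50, 2.36 and 7.58 in WT M0 AP-3-84, against 1.49, 1.06 and 1.51 and 2.88, 6.55 and 4.96 in WT M1 cells (difference 2.89, SE 0.54, adjusted p = 0.0317). Olfr1369-ps1, whose reads may belong to a related copy, read at most 6.28 CPM in any of these libraries (difference 5.38, SE 1.00, adjusted p = 0.0317). Gadd45b in WT M0 cells read 6.06, 5.74 and 8.69 CPM with vehicle and 6.00, 7.86 and 6.31 with AP-3-84, and its difference of 1.51 (SE 0.36) did not pass (adjusted p = 0.329). The count was 1 without WT M0 vehicle 1, WT M0 AP-3-84 2, or WT M1 vehicle 1 or 2.

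In KO cells the same difference, M1 minus M0, passed for 721 genes (6.12% called), 158 higher and 563 lower in M1. Those of lowest p were Cd300e, a myeloid receptor, Spn, which encodes the leukocyte sialoprotein CD43, and Zfp811. Cd300e read 1.05, 0.616 and 0.270 CPM in KO M0 vehicle and 83.9, 97.2 and 24.9 in KO M0 AP-3-84, but 97.8, 103 and 146 in KO M1 vehicle and 121, 112 and 124 in KO M1 AP-3-84. Trib3 read 2.36, 3.39 and 2.16 CPM in KO M0 vehicle and 10.6, 39.2 and 13.2 in KO M0 AP-3-84 (difference -3.11, SE 0.76, adjusted p = 0.014). Gadd45b read 12.8, 12.0 and 11.6 CPM in KO M0 vehicle and 26.3, 36 and 19.9 in KO M0 AP-3-84 (difference -1.12, SE 0.31, adjusted p = 0.0283). For Gdf15 the difference did not pass (-1.28, SE 0.44, adjusted p = 0.0763). The number of genes was 258 without KO M0 AP-3-84 library 2, 2024 without library 3 and 410 without library 1 of that group. It was 460 without KO M0 vehicle 1 and 407 without KO M1 AP-3-84 2.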

How the data were processed

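Gene counts were deposited by the authors as whole numbers per gene and library, from 3′ tag libraries (QuantSeq FWD, 100 ng RNA, single reads of 75 bases) per the labels' protocols. The submitters' processing notes name RSEM, Bowtie2 and DESeq2 without versions; the genome build used in alignment is not given in the sources used here. If the counts were RSEM estimates, they were rounded before deposit. Gene positions and promoters come from RefSeq and annotation tables of GRCm38.p6.

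The 36 bone marrow-derived libraries, in 12 groups of 3, were fitted together with edgeR 4.0.16 in R 4.3.3: filterByExpr, TMM scaling, robust quasi-likelihood fit with group means, two-sided tests and Benjamini-Hochberg adjustment over all 11779 genes, called at an adjusted p under 0.05. Limma 3.58.1 was a dependency. DESeq2 1.42.0, other filters and scalings, a replicate block, the 12 M1 libraries alone and the omission of each library were alternatives. Depth limits low genes, and the biological coefficient of variation was 0.225. The fitting script was checked on simulated counts.

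Genes named are those called, the 20 of lowest p in WT, the 10 of lowest p in KO (both with groups that do not overlap and a mean log2 CPM of at least 3), the 5 of lowest p in the difference, fixed examples, up to 4 members per list by WT p, and the 3 of lowest p against M0. The mean log2 CPM was taken over all 36 bone marrow-derived libraries. Members and lists were chosen with earlier results of these data known.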

Additional observations from a re-analysis of the deposited data

Results flagged for a closer look

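Listed here are 10 values, chosen among the named genes. For KO M1 against KO M0 cells, Trib3 and Hspa1a were added by name. Other named genes passed that test and are not listed, such as Aars (-1.43) and Chac1 (-3.38). For each, the response to AP-3-84 differed between groups by a direct test of the difference (edgeR, adjusted p under 0.05). Between genotypes in M1 cells this was Gdf15, at -2.36 on the log2 scale for KO minus WT. Between WT M1 and WT M0 cells the differences were 2.82 for Gdf15, 2.89 for Tmem26 and 5.38 for Olfr1369-ps1, each higher in M1. Between KO M1 and KO M0 cells 721 genes passed, 158 higher and 563 lower in M1. Those listed were -6.62 for Cd300e, -4.85 for Spn, -7.89 for Zfp811, -3.72 for Hspa1a, -3.11 for Trib3 and -1.12 for Gadd45b, each lower in M1. Hspa1a read 1.57, 0.308 and 1.89 CPM in KO M0 vehicle and 36.9, 11.8 and 48.7 in KO M0 AP-3-84. Spn read 12.8, 17.2 and 9.20 CPM in KO M0 vehicle and 420, 443 and 104 in KO M0 AP-3-84, while Zfp811 read 0, 0 and 0.270 CPM and then 34.6, 30.3 and 10.9.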

How the results depend on the processing

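The number of genes called in WT M1 cells was 2, and 12 with only the 12 M1 libraries, 230 with no filter on low counts, 28 with DESeq2 and 1 to 17 without one library. In KO M1 cells it was 0, and 29 with no filter. For the difference between genotypes it was 1, and 2 with only the M1 libraries, 0 with median-ratio size factors, 0 with total counts, 162 with no filter, 4 with DESeq2 and 0 to 1 without one library. At baseline it was 1372, and 623 where a log2 fold change of 1 or more in size was also asked, 2093 with total counts and 580 to 1778 without one library. For WT M1 against M0 it was 3, and 172 with no filter, 9 with DESeq2 and 1 to 4 without one library. For KO M1 against M0 it was 721, and 247 with only the KO libraries of both states, 1226 with no filter and 258 to 2024 without one library. The no-filter runs test many genes with few counts, and the cause of their larger counts was not tested. The main fit did not pair samples by replicate number. As deviations from the group means, same-numbered vehicle and treated libraries correlated at -0.0473 to -0.0059 in WT, each below another number. In KO, vehicle replicates 1 and 2 correlated most with their own number (0.289 and 0.375, against at most -0.111 and 0.173 for others). Replicate 3 did not (-0.0872 against 0.238). These values do not settle whether the KO samples were paired. A replicate block over all libraries gave 2 WT calls and 0 for the difference, and a replicate block within each population gave 3 WT calls and 1 for the difference.

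Gdf15 in WT was called in all 15 alternatives (log2 2.17 to 2.60). Its KO log2 value of 0.10 ran from -0.066 to 0.226 when 1 library was left out, turning negative without KO vehicle 2 (-0.066) and KO AP-3-84 1 (-0.05). That of Gadd45b, 0.05, ran from -0.071 to 0.181, negative without KO vehicle 3 (-0.04) and KO AP-3-84 2 (-0.071). The Gdf15 difference ran from -2.54 to -2.07 and lost its call with median-ratio size factors (adjusted p = 0.0516), total counts (0.143) and the replicate block over all libraries (0.0723), besides the omissions given above. The Gadd45b difference passed with no filter (0.00251), with DESeq2 (0.0479) and without WT AP-3-84 3 (0.0162). At this depth, genes of a few CPM rest on few reads.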
